A study of Mus musculus with 19 samples.

Results

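The AP-1 family was followed in mouse brain tissue through the 7 genes that encode its Fos and Jun subunits, Fos, Fosb, Fosl1, Fosl2, Jun, Junb and Jund. These members were taken by gene symbol from a list of 24394 genes, and all 7 were found. They were chosen with earlier results of these data known. RNA-seq was performed on hippocampus with adjoining cortex, cut as a single block, from 19 male mice of the C57BL/6NJ strain, with 1 library per mouse. The series addresses how Fabp7, the fatty acid binding protein of astrocytes, bears on seizure threshold and on activity-dependent gene expression. Mice received a single shock per day through ear clips at ZT20, in the dark phase, starting at 20 mA and rising by 2 mA per day, until tonic extension of both hind limbs, the maximal electroshock seizure threshold (MEST), when tissue was collected. Sham mice were handled alike without shock.

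The groups were 5 WT sham mice of 15.9 to 16.3 weeks, 4 Fabp7-KO sham mice of 17.3 to 17.9 weeks, 5 WT MEST mice of 17.4 to 18.0 weeks and 5 Fabp7-KO MEST mice of 18.9 to 19.4 weeks. No restriction of the knockout to a cell type is given. The number of daily shocks, the final current and the interval from the last shock to tissue collection were not given for single mice. The methods of the paper describe the sham libraries as cortical tissue of a single, younger age and do not mention sham handling, so the labels were followed here.

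AP-1 is a dimer of basic leucine zipper proteins in which a Fos protein always needs a Jun partner, while Jun proteins can also pair with each other and with proteins of the ATF and MAF families. Fos, Fosb and Junb are classic immediate early genes, switched on in neurons within minutes of calcium entry and MAP kinase signaling, and Fos mRNA is a standard marker of recent neuronal activity and of seizures. Their mRNAs are short-lived, whereas Jund is transcribed steadily in most cells.

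The promoter sequences below belong to Fos, Fosb and Junb, the 3 members with the largest falls in WT mice after electroshock. Each is the 250 bases before the RefSeq start of transcription on GRCm38.p6, written 5′ to 3′ on the strand of the gene. Capitals mark TGACG, the half-site of the cAMP response element, and, in Fos, TATAAA, the TATA box.
Fos: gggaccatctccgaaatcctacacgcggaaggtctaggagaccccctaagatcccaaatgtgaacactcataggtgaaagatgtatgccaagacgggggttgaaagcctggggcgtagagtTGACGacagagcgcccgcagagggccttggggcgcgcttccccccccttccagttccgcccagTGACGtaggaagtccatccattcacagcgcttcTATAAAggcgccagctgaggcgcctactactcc
Fosb: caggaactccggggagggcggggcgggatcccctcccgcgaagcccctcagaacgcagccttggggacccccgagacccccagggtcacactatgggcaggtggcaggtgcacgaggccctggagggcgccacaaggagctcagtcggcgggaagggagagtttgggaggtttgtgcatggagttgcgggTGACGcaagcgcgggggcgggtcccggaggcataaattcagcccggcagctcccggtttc
Junb: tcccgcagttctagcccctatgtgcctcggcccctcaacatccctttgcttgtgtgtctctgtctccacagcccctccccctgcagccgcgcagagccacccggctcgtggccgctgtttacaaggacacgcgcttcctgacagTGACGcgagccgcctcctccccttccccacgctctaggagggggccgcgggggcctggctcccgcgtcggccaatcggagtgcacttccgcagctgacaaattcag
The windows lie at chr12:85473640-85473889 on the plus strand (Fos), chr7:19310046-19310295 on the minus strand (Fosb) and chr8:84978749-84978998 on the minus strand (Junb). TGACG stood 129 to 125 and 66 to 62 bases before the start of Fos, 60 to 56 bases before that of Fosb and 106 to 102 bases before that of Junb. The Fos TATA box stood 33 to 28 bases before the start.

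Of the 7 members, 6 matched an entry of the RefSeq promoter table and 3 of these 6 windows held TGACG on either strand, against 17.8% of all 32851 windows of this length. TATAAA, searched on the strand of the gene, was found in 1 member window (Fos) and in 7.59% of all windows. The zinc finger motif of the EGR proteins, GCGGGGGCG on either strand, was found 50 to 42 bases before the start of Fosb and 79 to 71 bases before that of Fosl2, against 2.57% of all windows. The full cAMP response element TGACGTCA (1.55% of all windows), the AP-1 site TGANTCA (6.75%) and the CArG box of serum response factor (1.47%), all searched on both strands, had no match in the 6 windows. The full element contains TGACG, so the first motif and this one overlap. The RefSeq start of Jund lies 1210 bases, and that of Fosl2 671 bases, from the start of the gene in GENCODE, the annotation used here for gene spans and lengths. These matches are letters in a window and were not linked to binding in these mice. Sites more than 250 bases before a start were not searched, so an absent match holds for the window only.

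Reads in genes ranged from 27.6 to 51.7 M per library, and levels are CPM, reads of a gene per 1000000 reads in genes of its library. Fabp7 averaged 13.1 CPM in WT sham and 14.8 in WT MEST mice but 0.126 in KO sham and 0.0431 in KO MEST mice, so the level of the targeted gene went with the genotype labels. Fabp7 checks the genotype only, and no gene independent of the results was used to check the treatment labels. Markers were fixed for excitatory and inhibitory neurons, astrocytes, oligodendrocytes, microglia and endothelium, and for dentate gyrus, CA1 and cortical layers. Each averaged at least 0.2 CPM over all 19 libraries, and so did those of choroid plexus, striatum and thalamus. The hemoglobin genes Hba-a1 and Hbb-bs averaged under 0.2 CPM. On the first principal component of all genes, which held 16.6% of the variance, the 5 WT sham libraries stood apart at 20.5 to 31.0 and the other libraries lay between -14.2 and -1.50. WT sham mice were also the youngest group, and each comparison that includes them is therefore set beside those that do not.

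Compared per kb of exonic length, Jund was the most abundant member in WT sham mice (mean 49.8 CPM per kb), followed by Junb (40.7), Fos (32.6) and Jun (26.7). Fosl2 (4.22 CPM per kb) and Fosb (3.32) were lower, and Fosl1 was near 0 (0.0194). In WT MEST mice, Jund (57.8 CPM per kb) and Jun (21.4) led, while Junb (12.3) and Fos (6.94) stood lower in the order. The share of Jund in the summed CPM per kb of the family was 32.4% ± 6.34 (SD, n = 5) in WT sham and 55.6% ± 2.93 (SD, n = 5) in WT MEST mice, while the share of Fos was 20.3% ± 4.80 and 6.69% ± 1.65. In KO mice the share of Jund was 37.4% ± 8.83 (SD, n = 4) after sham handling and 41.2% ± 11.1 (SD, n = 5) at MEST.

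**Figure D1:**
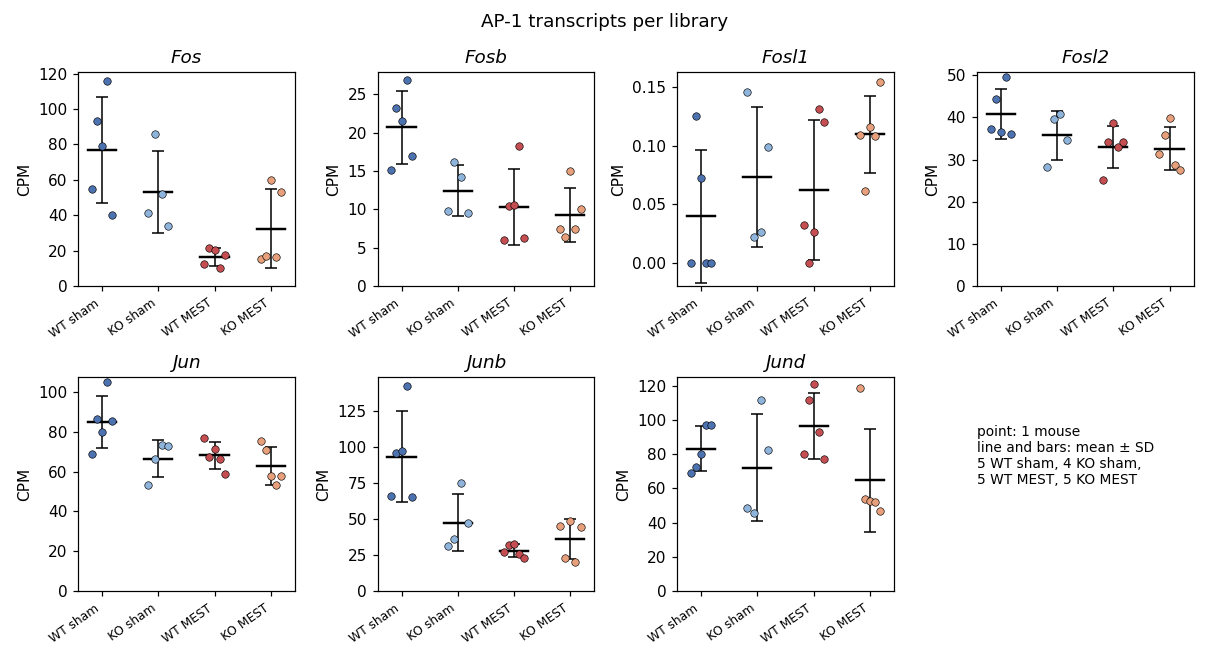
Level of each member in CPM (vertical axis, linear, from 0 except for Fosl1, whose axis starts just below 0) in the 4 groups (horizontal axis), with 1 point per mouse and the mean ± SD. The 5 WT MEST mice lie between 10.3 and 21.6 CPM for Fos and between 23.1 and 33.0 CPM for Junb, below all 5 WT sham mice.

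Fos, the founding member and the subunit most often read as a sign of neuronal activity, was lowest in WT MEST mice. The WT sham mice had 54.8, 93.4, 79.3, 116 and 40.3 CPM (replicates 1 to 5) and the KO sham mice 41.3, 85.8, 51.8 and 33.6 CPM (replicates 2 to 5). The WT MEST mice had 12.4, 21.6, 20.1, 10.3 and 17.3 CPM, and the KO MEST mice 15.3, 16.7, 60.1, 16.3 and 53.3 CPM. Every WT MEST library lay below every sham library of either genotype, whereas the KO MEST mice fell into 3 libraries at WT MEST levels and 2, replicates 3 and 5, at sham levels. The means were 76.7 ± 30.1 (SD, n = 5), 53.1 ± 23.0 (SD, n = 4), 16.3 ± 4.87 (SD, n = 5) and 32.3 ± 22.4 CPM (SD, n = 5), in the order in which the groups were just named. Ranked by mean, from WT sham through KO sham and KO MEST to WT MEST mice, neighbouring groups overlapped. Fos (ENSMUSG00000021250.13) lies at chr12:85473890-85477273 on the plus strand.

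Junb encodes a Jun subunit that is induced with Fos and activates transcription less strongly than Jun. Its level was 66.0, 96.3, 97.7, 143 and 65.6 CPM in WT sham mice and 31.3, 36.3, 75.5 and 47.5 CPM in KO sham mice. After electroshock it was 27.1, 32.2, 33.0, 25.7 and 23.1 CPM in WT and 45.3, 22.7, 49.1, 20.1 and 44.5 CPM in KO mice. All 10 MEST libraries lay below all 5 WT sham libraries, and only replicate 4 of the KO sham mice reached into the range of the WT sham mice. KO MEST and WT sham mice differ in genotype, treatment and age, and the share of all genes without overlap between them was not computed. Group means were 93.7 ± 31.6 (SD, n = 5) in WT sham, 47.6 ± 19.8 (SD, n = 4) in KO sham, 28.2 ± 4.27 (SD, n = 5) in WT MEST and 36.3 ± 13.8 CPM (SD, n = 5) in KO MEST mice. Junb (ENSMUSG00000052837.6) spans chr8:84974484-84978718 on the minus strand, and 351 bases of it overlap the end of Prdx2, a peroxiredoxin gene on the opposite strand. The libraries were made with a stranded kit, but the strand setting of the counting step was not given, so reads of the overlap may have been counted for either gene or left out.

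Fosb, whose gene also gives the long-lived truncated protein ΔFosB that cannot be told apart in gene-level counts, had 15.1, 23.3, 21.5, 26.9 and 17.0 CPM in WT sham mice and 9.71, 16.2, 14.2 and 9.49 CPM in KO sham mice. The WT MEST mice had 6.03, 10.4, 10.6, 18.3 and 6.25 CPM, and the KO MEST mice 7.41, 6.36, 15.0, 7.41 and 10.0 CPM. Only KO MEST and WT sham mice did not overlap. That pair differs in genotype, treatment and age, and its share of all genes without overlap was not computed. In WT MEST mice replicate 4, the library with the least Fos, had the most Fosb. The means ran from 20.7 ± 4.76 (SD, n = 5) in WT sham through 12.4 ± 3.33 (SD, n = 4) in KO sham and 10.3 ± 4.95 (SD, n = 5) in WT MEST to 9.24 ± 3.50 CPM (SD, n = 5) in KO MEST mice. Fosb (ENSMUSG00000003545.3) lies at chr7:19302696-19310051 on the minus strand.

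Fosl2, the Fos-related antigen FRA2 and a weaker activator without the strong activation domain of Fos, varied little. Its group ranges were 36.1 to 49.6 CPM in WT sham, 28.1 to 40.8 in KO sham, 25.04 to 38.7 in WT MEST and 27.5 to 39.9 CPM in KO MEST mice, and all 4 overlapped. Fosl1, which encodes FRA1, had few counted reads in this tissue, with at most 8 reads in a library. It had 50 reads in all 19 libraries together and 0 reads in 4 of them. At the depth of those 4, 0 reads allow a level of up to 0.0919 to 0.102 CPM (3 reads per library, counting error only). Fosl1 did not pass the filter on low values and was not tested. The span of Fosl1 (ENSMUSG00000024912.6) also overlaps that of Ccdc85b on the opposite strand by 2767 bases. Ccdc85b averaged 54.6 CPM over the 19 libraries. As the strand setting of the counting step was not given, reads of Fosl1 in the overlap may have been left out. The low level of Fosl1 therefore holds for counted reads only.

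Jun, the strongest transcriptional activator among the Jun subunits and the target of JNK, had 68.6, 86.4, 79.7, 105 and 85.5 CPM in WT sham and 53.2, 66.5, 73.6 and 72.9 CPM in KO sham mice. Its level in MEST mice was 76.9, 67.1, 71.4, 66.2 and 58.9 CPM in WT and 75.5, 70.8, 57.6, 53.5 and 57.6 CPM in KO mice. The WT sham mice were highest and overlapped every other group at their lower end. Jun (ENSMUSG00000052684.4) lies at chr4:95049034-95052222 on the minus strand.

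Jund, the constitutive Jun subunit and the main partner of ΔFosB in brain, showed another order. It stood at 69.1, 72.6, 79.9, 96.7 and 97.2 CPM in WT sham mice, at 48.7, 45.6, 111 and 82.6 CPM in KO sham mice and at 79.9, 112, 121, 92.8 and 77.1 CPM in WT MEST mice. In KO MEST mice it was 118 CPM in replicate 1 and 53.6, 52.8, 52.1 and 46.7 CPM in the other 4. Jund was thus highest on average in WT MEST mice (96.4 ± 19.2 CPM, SD, n = 5) and lowest in KO MEST mice (64.7 ± 30.1 CPM, SD, n = 5), with all groups overlapping. Jund (ENSMUSG00000071076.6) has a single exon at chr8:70698949-70700616 on the plus strand.

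**Figure D2:**
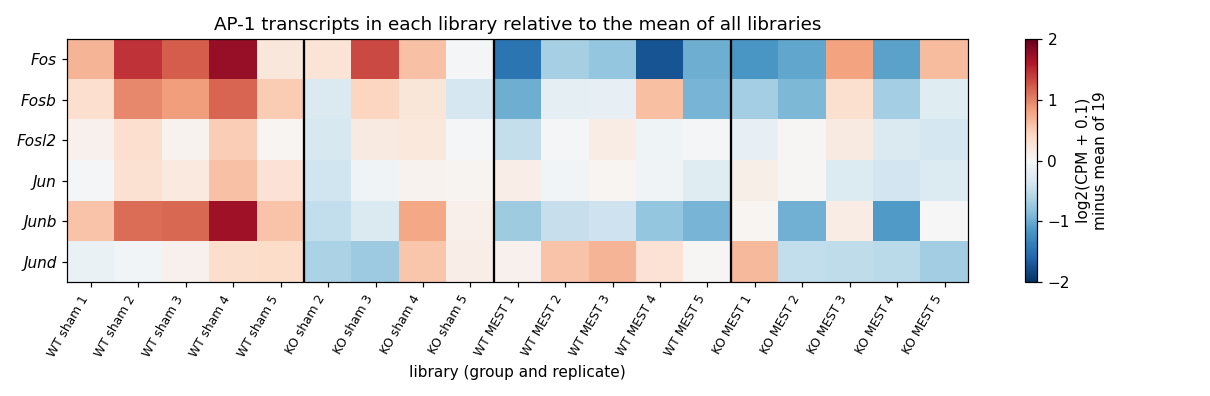
Difference of log2(CPM + 0.1) from the mean of all 19 libraries (color scale) for the 6 members with reads in every library (rows) in each library (columns, grouped). The rows of Fos, Fosb and Junb are red across the 5 WT sham libraries, and WT sham replicate 4 holds the highest value of 5 of the 6 members.

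The electroshock effect in WT mice asks how the family stood in mice that had reached the seizure threshold, compared with handled mice of the same genotype. As the interval from the last shock to collection was not given, the levels cannot be placed in time after the seizure. Fos fell by 2.18 on the log2 scale (95% interval -2.95 to -1.42, adjusted p = 0.00183), a ratio of 4.70 between the WT sham and WT MEST means, and Junb fell by 1.68 (-2.19 to -1.16, adjusted p = 0.000837), a ratio of 3.32. Fosb fell by 1.09 (standard error 0.32, adjusted p = 0.0375) and Jun by 0.31 (standard error 0.09, adjusted p = 0.0237). Fosl2 stood at -0.31 (adjusted p = 0.053) and Jund at 0.21 (adjusted p = 0.383), and neither passed, although Fosl2 did so in 8 of 21 alternative analyses, scaling by TMM factors among them. Adjusted p-values here and below are Benjamini-Hochberg values from limma over all genes tested, on log2(CPM + 0.1), with calls at an adjusted p under 0.05.

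Thus 4 of 6 tested members were called lower and 0 higher in WT MEST mice, against 12.2% of the 16080 genes tested called lower. The median log2 fold change of the 6 members was -0.70, against a value within 0.01 of 0 over all genes. Fos and Junb, 2 of the 6, had groups that did not overlap, against 7.95% of all genes in that direction. Fos and Junb passed in all 21 alternative analyses. Fosb lost its call when any of 8 libraries was left out (WT sham replicates 2, 3, 4 or 5, WT MEST replicates 1, 2, 3 or 5), at an adjusted p of 0.0546 to 0.0796 from limma, and Jun lost it without WT sham replicate 5 or WT MEST replicate 2 or 4 (0.0501 to 0.0638). Fosb also lost its call with edgeR (adjusted p = 0.0525) and Jun in the limma fit of all 19 libraries (adjusted p = 0.0579). Without WT MEST replicate 2 only 2 members were called. In bulk tissue, fewer cells that express a gene cannot be told apart from less RNA per cell. The WT MEST mice were older than the WT sham mice without overlap, so that age and electroshock cannot be told apart in this comparison.

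**Figure D3:**
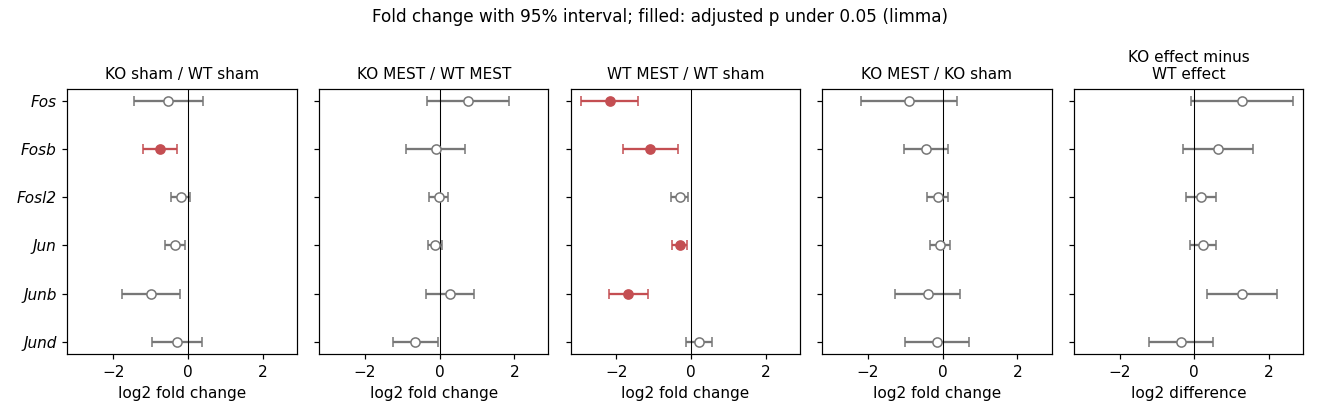
Log2 fold change (horizontal axis) of the 6 tested members (rows) in the genotype comparisons, the electroshock comparisons and, in the last panel, the difference of the electroshock effects, with 95% intervals from limma. Filled points passed at an adjusted p under 0.05, which were Fosb in sham mice and Fos, Fosb, Jun and Junb in WT mice after electroshock.

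In KO mice the same question gave no called member. Fos stood at -0.90 on the log2 scale (95% interval -2.18 to 0.37, adjusted p = 0.443), Fosb at -0.45 (-1.04 to 0.14, adjusted p = 0.411) and Junb at -0.40 (-1.28 to 0.47, adjusted p = 0.641). Jun (-0.08), Fosl2 (-0.13) and Jund (-0.15) were closer to 0. The estimate was below 0 in 6 of 6 members, with a median of -0.28 against -0.01 over all genes. Among the 16147 genes tested in KO mice, 1.36% were called in either direction, and 0 of 6 members were. At an unadjusted p under 0.05, 0 members and 2885 genes passed, and edgeR and DESeq2 called 0 members as well. The intervals of Fos, Fosb and Junb still include a fall of more than 2-fold. The KO MEST mice were older than the KO sham mice without overlap, so age and electroshock cannot be told apart here either.

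Whether the effect differed between genotypes was tested as the KO effect minus the WT effect in 1 model of all 19 libraries. Junb had a difference of 1.28 on the log2 scale (95% interval 0.34 to 2.22, adjusted p = 0.0566) and Fos one of 1.28 (-0.08 to 2.64, adjusted p = 0.19). No member passed (0 of 6, against 18.5% of the 16596 genes tested in either direction), although the difference of Junb passed in 10 of 29 alternatives, with adjusted p-values between 0.0136 and 0.117. Among these were edgeR and DESeq2, each with Junb as the only member called. Before adjustment, at a p under 0.05 by limma, Junb alone of the members passed, and so did 5086 of the 16596 genes tested. Fosb (0.64), Jun (0.23), Fosl2 (0.17) and Jund (-0.36) had intervals that included 0. Both electroshock effects also span a difference in age, which cannot be told apart from electroshock in either.

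The genotype effect in sham mice asks how the loss of Fabp7 bears on the family without a shock. Fosb was the member called, lower in KO mice by 0.74 on the log2 scale (standard error 0.21, adjusted p = 0.035), with 3 of 4 KO sham libraries below all WT sham libraries. All 6 tested members had estimates below 0, with a median of -0.44 against -0.01 over all genes. The counts of 1 of 6 called lower and 0 called higher stand against 6.83% and 8.58% of the 16182 genes tested. Junb had the larger fold change, -0.996 (95% interval -1.77 to -0.22, adjusted p = 0.0915), but also a wide spread among the KO sham mice, and it passed in 5 of 20 alternatives, DESeq2 and the analysis without KO sham replicate 4 (-1.25) among them. The paper reported Junb as significantly lower in KO mice by DESeq2, beyond its fold change cutoff. In the main limma test here Junb did not pass. DESeq2 on the recovered reads called it at -0.978 on the log2 scale (adjusted p = 0.0353), just short of that cutoff. The result of the paper and those here rest on the same sham libraries, so the direction of Junb is not independent evidence. The paper also described JUNB as higher in human astrocytes that overexpress FABP7, which are not part of these data. Jun (-0.35, adjusted p = 0.0745), Fos (-0.52, adjusted p = 0.438), Jund (-0.29) and Fosl2 (-0.19) did not pass.

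The call of Fosb in sham mice was lost when WT sham replicate 2, 3 or 4 or KO sham replicate 2, 4 or 5 was left out (adjusted p from 0.0538 to 0.0873 by limma). It was also lost in the limma fit of all 19 libraries (adjusted p = 0.123), where Junb passed (adjusted p = 0.0425), and with the length trend removed (adjusted p = 0.0552). Here too the groups differed in age without overlap, which cannot be told apart from genotype. Prdx2, whose end overlaps Junb, moved the other way from it, by 0.34 on the log2 scale (adjusted p = 0.00134) in KO over WT sham mice and by 0.27 (adjusted p = 0.000634) in WT MEST over WT sham mice. Its part in the level of Junb was not tested.

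Between the genotypes at MEST, 0 of 6 members were called, against 9.86% of the 16061 genes tested in either direction. Fos was 0.76 higher in KO MEST than in WT MEST mice on the log2 scale (95% interval -0.34 to 1.86, adjusted p = 0.36), which rested on replicates 3 and 5 of the KO MEST mice. Jund was 0.65 lower (-1.26 to -0.04, adjusted p = 0.163), with 4 of 5 KO MEST libraries below all WT MEST libraries. Without KO MEST replicate 1, the library at 118 CPM, the log2 fold change of Jund was -0.89 with an adjusted p of 0.00132 from limma. Of 10 analyses with a library left out, this was the only 1 in which Jund passed. That library was also the highest KO MEST library for the genes most like Jund. Fosb, Fosl2, Jun and Junb had estimates between -0.12 and 0.28. At an unadjusted p under 0.05, Jund alone of the members passed, and so did 4344 of the 16061 genes tested. Both edgeR and DESeq2 called 0 members. The KO MEST mice were older than the WT MEST mice without overlap, so age and genotype cannot be told apart in this comparison.

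WT MEST and KO sham mice overlapped in age, at 17.4 to 18.0 and 17.3 to 17.9 weeks, but differed in both genotype and treatment. Fos was lower in each of the 5 WT MEST than in each of the 4 KO sham libraries, with a ratio of 3.25 between the KO sham and WT MEST means, and its log2 fold change of -1.66 (95% interval -2.41 to -0.91) had an unadjusted p of 0.000978 and an adjusted p of 0.466 from limma. Groups without overlap in that direction were found in 1.12% of the 16137 genes tested, and 0.0744% of them were called in either direction by limma, among them 0 of 6 members. DESeq2 on the recovered reads called Fos alone of the members (adjusted p = 0.00105). Junb stood at -0.68 on the log2 scale (adjusted p = 0.899), and Fosb (-0.35), Fosl2 (-0.11), Jun (0.04) and Jund (0.50) likewise did not pass. These comparisons share groups, as WT MEST and KO sham mice each enter 3 of the 5 comparisons of a pair of groups, so their estimates are not independent. Each of the members called by limma was called in a comparison with WT sham mice, and the 3 comparisons without them called 0.

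**Figure D4:**
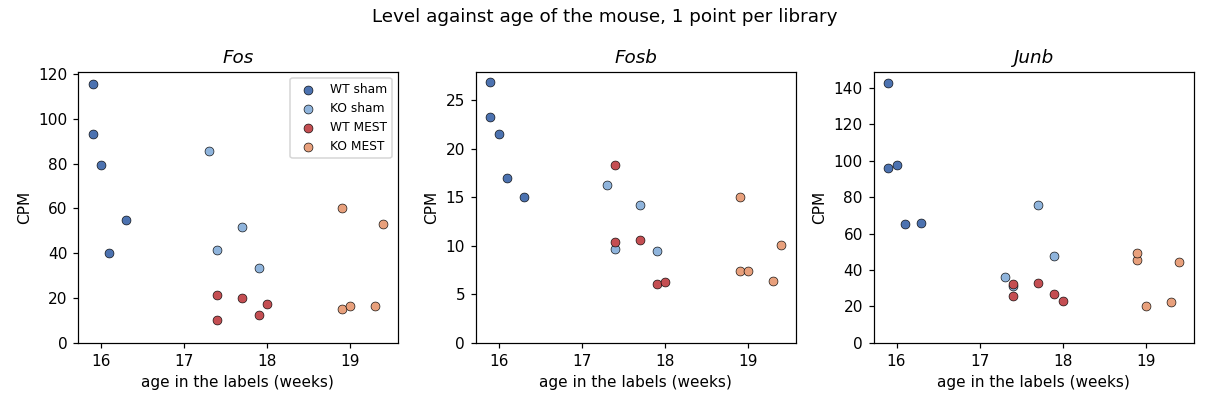
Level of Fos, Fosb and Junb in CPM (vertical axes, from 0) against the age of the mouse in weeks (horizontal axes), 1 point per library, colored by group. Only WT MEST and KO sham mice overlap in age, and between them Fos is lower in all 5 WT MEST mice while Fosb and Junb overlap.

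The other immediate early genes, 29 listed for their rapid induction by activity, were all tested, and in WT mice after electroshock the estimate was below 0 in 25 and above 0 in 4. Of the 29, 16 were called lower and 0 higher, against 12.2% and 12.3% of all genes, with a median log2 fold change of -0.48. The 3 with the smallest p were Npas4, a neuron-specific transcription factor driven by calcium (-2.97, adjusted p = 3.35e-06), Dusp6, a phosphatase of ERK (-0.58, adjusted p = 0.00048), and Nr4a2, an orphan nuclear receptor (-0.58, adjusted p = 0.00059). In KO mice 0 were called lower and 3 higher, against 0.601% and 0.762% of all genes, and these were Nptx2, which encodes a synaptic pentraxin (0.56, adjusted p = 0.0431), Dusp5, a phosphatase of nuclear ERK (0.49, adjusted p = 0.0454), and Bdnf, the neurotrophin (0.47, adjusted p = 0.0475). Their values in WT mice were 0.73 for Nptx2 (adjusted p = 0.0806), -0.16 for Dusp5 (adjusted p = 0.49) and 0.24 for Bdnf (adjusted p = 0.0653) by limma, and of the 3 only Dusp5 had a called difference between the genotypes (adjusted p = 0.765 for Nptx2 and 0.336 for Bdnf). The difference between the genotypes was called for 4 of 29, all higher, against 8.85% of all genes, with Per1, a clock gene also induced by activity (0.63), Dusp5 (0.65) and Npas4 (2.06) having the smallest p. In sham mice 4 of 29 were called lower and 0 higher in KO mice, against 6.83% and 8.58% of all genes, the first being Per1 (-0.39, adjusted p = 0.0143), the zinc finger factor Egr1 (-0.70, adjusted p = 0.0233) and Egr3 (-0.45, adjusted p = 0.0294), and with TMM factors 3 were. At MEST, Dusp5 was the 1 gene of 29 called, higher in KO mice (0.43, adjusted p = 0.0234), against 4.94% of all genes in that direction. Npas4 was the 1 gene of 29 called between WT MEST and KO sham mice, lower in WT MEST (-2.195, adjusted p = 0.000284), against 0.0372% of all genes.

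**Figure D5:**
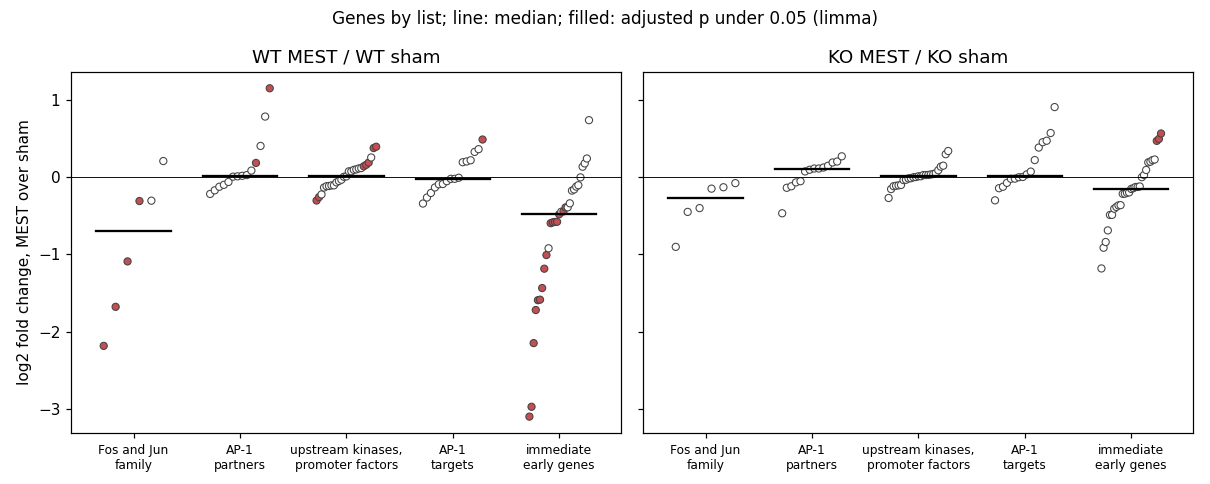
Log2 fold change of MEST over sham mice (vertical axis) for the genes of each list (horizontal axis) in WT (left) and KO mice (right), with the median as a line and genes that passed at an adjusted p under 0.05 filled. In WT mice 4 of 6 family members and 16 of 29 immediate early genes were called lower, and in KO mice 0 of either were.

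Upstream of the family, 25 kinases and promoter-binding factors that lead from calcium and growth factor signals to the Fos and Jun promoters were all tested. In WT mice after electroshock 5 were higher and 2 lower, against 12.3% and 12.2% of all genes, with a median of 0.01 on the log2 scale. Map2k1, which encodes the ERK kinase MEK1 (0.37, adjusted p = 9.28e-06), and Map2k2, which encodes MEK2 (0.39, adjusted p = 0.00521), rose, while Map2k7, a kinase of JNK, fell by 0.30 (adjusted p = 0.000139). In KO over WT sham mice, a comparison that shares the WT sham libraries, 3 were higher and 1 lower, against 8.58% and 6.83% of all genes, led by Map2k1 at 0.30, Map2k7 at -0.29 and Map2k2 at 0.33 on the log2 scale. In KO mice after electroshock 0 of 25 were called. The MEST genotype comparison called 1 lower, against 4.92% of all genes, the nucleosomal kinase gene Rps6ka5 (-0.27, adjusted p = 0.0167). For the difference of the electroshock effects 3 were higher and 1 lower, against 8.85% and 9.68% of all genes, led by Map2k7 (0.45), Map2k1 (-0.41) and Srf (0.39), the serum response factor of the Fos promoter.

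Of 16 other AP-1 partners, from the ATF, MAF and BATF families, 14 passed the filter on low values in each comparison of a pair of groups. In KO over WT sham mice 1 was called higher, against 8.58% of all genes, and in WT MEST over WT sham mice 2 were, against 12.3%. Atf2, a partner of Jun on cAMP response elements, was called in both (0.17, adjusted p = 0.0411, and 0.18, adjusted p = 0.0133). Nrl, a MAF protein best known from rod photoreceptors, was the other partner called in WT mice (1.15, adjusted p = 0.0238). For the difference of the electroshock effects, where 15 passed the filter, Mafk, a small MAF protein, was higher (0.42) and Atf2 (-0.25) and Nrl (-1.62) were lower, against 8.85% and 9.68% of all genes. Of 19 genes known as AP-1 targets, 16 passed the filter, and 1 of the 16 was called in each of the 3 comparisons that follow, against 12.3%, 6.83% and 4.94% of all genes in that direction. Cdkn1a, the cell cycle inhibitor p21, was higher in WT MEST over WT sham mice (0.48, adjusted p = 0.00773), Vegfa, the vascular growth factor, lower in KO over WT sham mice (-0.22, adjusted p = 0.0224) and Timp1, an inhibitor of metalloproteinases, higher in KO over WT MEST mice (1.29, adjusted p = 0.0479). Vegfa was also the 1 target called for the difference of the electroshock effects (0.43, against 8.85% of all genes). In KO mice after electroshock 0 of the partners and 0 of the targets were called, against 1.36% of all genes in either direction. The median of the targets in WT mice after electroshock was -0.02, beside -0.70 for the family.

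The genes whose profile over the 19 libraries was most like that of a member were found by the root mean square difference of centred log2(CPM + 0.1), among 14147 genes of at least 1 CPM. For Fos they were Btg2, an antiproliferative early gene, at 0.31, Cyr61, a secreted matrix protein, at 0.35 and Npas4 at 0.40, where Fos itself varied by 1.05 around its mean. For Junb they were Ier2, Egr4 and Egr1, all early response genes, at 0.43, 0.43 and 0.45, against a variation of Junb of 0.78. For Fosb they were Egr3 (0.36), the interferon-inducible gene Ifi203 (0.42) and Crh, the corticotropin-releasing hormone (0.43). Jund was closest to Bmyc (0.15), 1110008P14Rik (0.15) and Romo1 (0.16), none of them on the list of immediate early genes. For Jun they were Ndufb11, Inpp1 and Apoe (0.14 to 0.15), and for Fosl2 Nab2, Mettl2 and Sema4c (0.14 to 0.15), but both members varied by only 0.24 and many genes of low variation come close to such a profile. Within the family, Jun and Fosl2 were the most alike pair (0.22), Fosb and Junb differed by 0.48 and Fos and Junb by 0.62. These values are descriptions of libraries that share group and depth and were given no test.

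The summed levels of several cell type marker lists were apart between some groups and overlapped between others. The summed level of 3 CA1 markers ran from 134 to 155 CPM in WT sham and 139 to 162 CPM in KO sham mice. At MEST it ran from 156 to 178 CPM in WT and 175 to 243 CPM in KO mice. The sum of 5 inhibitory neuron markers ran from 803 to 961 CPM in WT sham and 983 to 1031 CPM in KO sham mice. At MEST that sum ran from 963 to 1065 CPM in WT and 881 to 1033 CPM in KO mice. Markers of leptomeningeal fibroblasts summed to 77.7 to 104 CPM in KO MEST mice. This was above the 58.0 to 69.7 of KO sham, 64.2 to 73.9 of WT MEST and 56.3 to 75.1 CPM of WT sham mice. Oligodendrocyte markers summed to 5249 to 5734 CPM in KO MEST and 5802 to 6383 CPM in KO sham mice. In WT mice they summed to 5377 to 7379 CPM at MEST and 5865 to 6592 CPM after sham handling. Markers of dentate granule cells summed to 51.5 to 64.7 CPM in KO MEST and 68.8 to 76.9 CPM in WT MEST mice. After sham handling they summed to 45.1 to 70.4 CPM in KO and 60.3 to 77.5 CPM in WT mice. Excitatory neuron markers summed to 5555 to 6253 CPM in WT sham and 5095 to 5605 CPM in WT MEST mice. In KO mice they summed to 4723 to 5657 CPM after sham handling and 5317 to 6145 CPM at MEST. Lists for tissue outside hippocampus and cortex were present and uneven too. Choroid plexus markers summed to 870 to 1417 CPM in WT sham and 1161 to 1837 CPM in KO sham mice. At MEST they summed to 1086 to 1902 CPM in WT and 1021 to 1433 CPM in KO mice. Striatum markers summed to 305 to 567 CPM in WT sham and 395 to 581 CPM in KO sham mice. At MEST they summed to 351 to 573 CPM in WT and 342 to 493 CPM in KO mice. Single markers of a list could differ in direction. Of 5 excitatory markers, 1 was called higher and 2 lower in WT mice after electroshock. Of 3 CA1 markers, 1 was called higher and 1 lower in KO over WT MEST mice. The part of these levels in the results was not tested.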

How the data were processed

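RNA was isolated from 19 blocks of hippocampus and cortex, and stranded poly-A libraries were sequenced in pairs of reads. Per the labels and the methods of the paper, the authors trimmed reads with Trimmomatic 0.39, removed rRNA, aligned to mm10 with HISAT2 2.2.1 and counted with featureCounts of Subread 2.0.3. They normalized with DESeq2 1.36.0, and the values used here were normalized within each genotype. The deposited signal is a read count divided by 1 size factor per library. The deposited tables also hold the authors' fold changes and p-values, which were not used. Of 24421 gene rows, 27 had turned into dates (no library lost over 0.384% of its signal) and were left out. All values (100%) were whole reads within a tolerance of 0.01 after division by the step of their library.

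Libraries were grouped by the labels and rescaled to CPM by their own totals, which removes the scale of the separate tables. Depth, 27.6 to 51.7 M reads in genes, limits precision only for Fosl1. Genes that reached 0.2 CPM in a number of libraries equal to the size of the smaller group were tested with limma 3.58.1 (trend, robust) on log2(CPM + 0.1) in R 4.3.3, with Benjamini-Hochberg adjustment, after the code was tested on simulated data. The pseudocount makes fold changes of low genes smaller. Alternatives were TMM factors, median-of-ratios size factors, pseudocounts of 0.5 and 1, no filter, a filter at 1 CPM, edgeR 4.0.16 and DESeq2 1.42.0 on recovered reads, all 19 libraries in 1 fit, a replicate block, removal of a loess trend on exonic length (span 0.5; 95.7% of genes had a length) and each library left out. Nothing in the labels says that the mice came from separate litters or cages, so p-values measure the spread between these mice. Named were all members, up to 3 called genes per list with the smallest p and the 3 genes most like each member. The members, lists and comparisons were chosen with earlier results of these data known. Isoforms cannot be separated in these tables. Gene spans and lengths came from GENCODE on GRCm38 and promoters from RefSeq. Plots were drawn in matplotlib 3.10.9 under Python 3.11.15.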

Additional observations from a re-analysis of the deposited data

Results flagged for a closer look

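In 32 groups of 4 or 5 libraries checked for a value far from the rest, 3 were found, and chance gives about 1 in 20 groups. Jund in KO MEST replicate 1, at 118 CPM, lay above the other 4 libraries of its group by 0.904 of the range. The same library was the highest KO MEST library for Bmyc (41.1 CPM), 1110008P14Rik (85.1 CPM) and Romo1 (23.3 CPM). Those genes were picked for their likeness to Jund, and the value is thus not particular to Jund. The ratio of Fosb to Fos, both per kb, was 0.159 in WT sham replicate 5 (0.774 of the range) and 0.669 in WT MEST replicate 4 (0.882 of the range), the highest of its group in both cases. Beside the latter, the ratio averaged 0.109 ± 0.0285 (SD, n = 5) in WT sham and 0.0923 ± 0.0161 (SD, n = 4) in KO sham mice. No cause was tested.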

How the results depend on the processing

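Fos and Junb fell in WT mice after electroshock in each of the 21 alternatives. Of 786 values of single members under an alternative, 727 kept direction and side of the threshold, 21 lost and 28 gained a call and 10 changed sign, none of them called. Signs changed for Fosb between genotypes at MEST (-0.30 to 0.13 with a library left out), Fosl2 there (-0.116 to 0.0407, and 0.00669 without the length trend), Jund in KO mice after electroshock (-0.392 to 0.0917) and Jun between WT MEST and KO sham (-0.0633 to 0.0927, and -0.00494 with the replicate block). Members called in sham mice (1) were 2 without a filter, 3 with DESeq2, 0 without the length trend and 0 to 2 with a library left out. In WT mice after electroshock (4) they were 2 to 4 with a library left out and 3 to 5 in the other alternatives, and between genotypes at MEST 0 to 1 with a library left out. For WT MEST over KO sham DESeq2 called 1. For the difference, 1 was called (Junb) without a filter, with a filter at 1 CPM, with edgeR, with DESeq2 and without the length trend, and 0 to 1 with a library left out. Genes called in KO mice after electroshock (123 higher, 97 lower) were 37 and 18 without a filter, 547 and 368 with DESeq2, 239 and 271 in the fit of all libraries, 148 and 75 with median-of-ratios factors, 9 to 234 and 5 to 200 with a library left out, and 183 lower without the length trend. Between genotypes at MEST DESeq2 called 1254 higher (793 in the main analysis), and with a library left out 391 to 980 were higher and 394 to 941 lower. For WT MEST over KO sham (6 and 6) DESeq2 called 17 and 18. Replicate numbers were not taken to pair the mice in the main analysis. Over all genes, same-numbered libraries had correlations of -0.07 to 0.26, and no comparison had all above 0.1. Such correlations cannot show whether a shared factor acted on few genes. With the replicate block 3 members were called in sham mice, 58 genes were higher and 47 lower in KO mice after electroshock, and 2 were lower in WT MEST than in KO sham mice. The causes were not tested.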
